A study of Mus musculus with 4 samples.

Results

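The small leucine-rich proteoglycans are secreted matrix proteins built on a core of leucine-rich repeats, and 10 of their genes were followed here among the 33697 features of the count tables: Dcn, Bgn, Aspn, Lum, Fmod, Prelp, Kera, Omd, Ogn and Podn. Their RNA was measured by single-cell sequencing of mouse trachea in 11229 of 35329 cells kept, sorted into 4 classes by a few genes each. The fibroblast gate took Col1a2-positive cells without Epcam or Acan (9005 cells), and the chondrocyte gate took cells with at least 3 UMIs of Acan, Hapln1 and Matn3 together (1044 cells). Cells with Prox1 formed the lymphatic gate (1015 cells), and cells with both Myh11 and Acta2 formed a gate meant for smooth muscle (165 cells). A UMI is a tag that marks 1 captured RNA molecule, and levels are given as CPM, the UMIs of a gene for each 1000000 UMIs of that gate in that library.

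There were 4 libraries, each from mice carrying P63-CreER, Ki67-lsl-Dre and Rosa26-rsr-GFP. The knockout dorsal and knockout ventral libraries came from Ctnnb1-fl/fl mice, and the control dorsal and control ventral libraries from Ctnnb1-fl/+ mice. All mice received tamoxifen, and tracheae were taken 10 days later and cut into a dorsal and a ventral piece. The Cre acts in P63-expressing basal cells of the epithelium, so that the cells the 4 gates were set for are not the targeted ones, and the controls also carry 1 floxed allele. The number of mice behind a library is not given in the sources used here. With 1 library per group no difference has a replicate check, no test was run, and all intervals are 95% intervals for counting error only.

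As background, these proteins bind collagen fibrils through their repeats, and several carry chondroitin, dermatan or keratan sulfate chains. They are known for setting fibril width and spacing in skin, tendon, cartilage and cornea, and decorin, biglycan and asporin are also known to bind TGF-beta. In the trachea the matrix lies in the cartilage rings of the ventral and lateral wall, in the perichondrium around them, and in the membrane of the dorsal wall, where muscle bridges the gap between ring ends.

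Most of the genes lie in small tandem groups. Dcn, Lum and Kera are neighbours on chromosome 10 and are followed by Epyc. Ecm2, Aspn, Omd and Ogn follow each other on chromosome 13, and Optc, Prelp and Fmod on chromosome 1, while Bgn lies on chromosome X and Podn on chromosome 4. RefSeq upstream sequence (GRCm38.p6) was matched for 8 of the 10 genes. It is shown for members whose regional ratios differed although they are neighbours, and for Bgn, whose ratio differed between genotypes. The windows end at the base before the gene's start and are written 5′ to 3′ on the gene's strand. They are Aspn at chr13:49544193-49544442 (plus strand), Omd at chr13:49582362-49582461 (plus), Ogn at chr13:49607765-49608014 (plus), Fmod at chr1:134037154-134037253 (plus), Prelp at chr1:133921402-133921501 (minus) and Bgn at chrX:73483501-73483600 (plus). Capitals mark matches, on either strand, to the TATA-box letters TATAAA, to the AP-1 letters TGANTCA or to the GC-box letters GGGCGG, and overlapping matches run together.
Aspn: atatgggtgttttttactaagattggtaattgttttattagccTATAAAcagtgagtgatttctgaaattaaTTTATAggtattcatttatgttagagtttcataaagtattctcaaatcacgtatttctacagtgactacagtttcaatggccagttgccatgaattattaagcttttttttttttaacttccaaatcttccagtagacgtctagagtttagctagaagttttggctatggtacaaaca
Omd: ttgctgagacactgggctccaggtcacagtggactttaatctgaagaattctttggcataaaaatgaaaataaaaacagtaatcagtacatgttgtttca
Ogn: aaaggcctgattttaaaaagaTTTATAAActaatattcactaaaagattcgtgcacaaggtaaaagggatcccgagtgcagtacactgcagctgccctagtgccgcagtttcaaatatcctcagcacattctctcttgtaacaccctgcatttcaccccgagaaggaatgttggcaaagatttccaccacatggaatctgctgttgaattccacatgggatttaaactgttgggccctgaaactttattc
Fmod: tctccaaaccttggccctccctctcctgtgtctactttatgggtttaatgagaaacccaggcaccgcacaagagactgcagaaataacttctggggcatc
Prelp: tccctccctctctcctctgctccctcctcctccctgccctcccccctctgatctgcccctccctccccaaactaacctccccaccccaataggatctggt
Bgn: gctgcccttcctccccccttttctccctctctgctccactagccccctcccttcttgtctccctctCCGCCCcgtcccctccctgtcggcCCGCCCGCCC

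The letters TATAAA occurred in the 250 bases upstream of Aspn, at positions -207 and -178 from the start, and of Ogn, at -229 and -227, in overlapping matches on opposite strands. GGGCGG occurred on the minus strand upstream of Bgn, at -34, -10 and -6, and on the gene's own strand upstream of Podn, at -202 and -70. None of the 3 motifs was found in the 250 bases of Omd, Fmod, Prelp or Kera. Among 32851 mouse windows of that length, 12.4% held TATAAA, 6.75% held TGANTCA (which reads the same on both strands) and 32.7% held GGGCGG, so a match is a description of the letters and not a site.

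The libraries held 6744 barcodes in knockout dorsal, 7668 in knockout ventral, 13962 in control dorsal and 11150 in control ventral trachea, with 144851737 to 286711618 UMIs each, and any pair shared 21 to 57 barcodes. Ctnnb1, the targeted gene, stood at 209 and 227 CPM in Krt5-rich epithelial cells of knockout dorsal and knockout ventral trachea, and at 277 CPM in both control libraries. In the fibroblast gate it stood at 92.6 and 129 CPM in knockout dorsal and knockout ventral trachea, against 126 and 151 CPM in control dorsal and control ventral trachea, so it was lower in knockout libraries in cells without the Cre too. Which exons are deleted is not given in the sources used here, so these counts do not check the deletion. The fibroblast gate had 8 of 8 fibroblast markers detected in every library, with a summed level of 4504 CPM in knockout dorsal, 5266 CPM in knockout ventral, 7768 CPM in control dorsal and 7381 CPM in control ventral trachea. It held 2042 cells in knockout dorsal, 2264 in knockout ventral, 2304 in control dorsal and 2395 in control ventral trachea, with median depths of 8703 to 11561 UMIs. Epithelial markers summed to 757 CPM in knockout dorsal, 206 CPM in knockout ventral, 1551 CPM in control dorsal and 451 CPM in control ventral trachea in that gate, more in dorsal than in ventral ones. Pecam1, an endothelial gene, had a UMI in 16.7% of gated cells in knockout dorsal, 35.3% in knockout ventral, 15.7% in control dorsal and 30.7% in control ventral trachea, while Cdh5, another endothelial gene, was in at most 0.71%. With Pecam1, Ptprc and Krt5 at 0 and at least 3 Col1a2 UMIs, the regional ratios were 2.79 and 2.89 for Lum, 1.70 and 2.07 for Aspn, 0.0696 and 0.141 for Kera, and 0.0175 and 0.160 for Fmod, in the knockout and control pairs.

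Fibroblast-gate cells held most of the RNA of this family. The 10 genes together made up 1.83% of fibroblast-gate UMIs in knockout dorsal and 1.60% in knockout ventral trachea, and 1.88% in control dorsal and 1.71% in control ventral trachea. Dcn, encoding decorin, the best-known collagen-binding member, supplied 70.9% to 79.7% of them. Its level was 14604 CPM in knockout dorsal and 12452 CPM in knockout ventral trachea, and 13345 CPM in control dorsal and 13099 CPM in control ventral trachea. Bgn and Ogn came next in 3 of the 4 libraries, and Bgn and Lum in control dorsal trachea. Fmod and Kera were at the low end, and neither passed 41.5 CPM in any library. This order is one of UMIs, and so of captured RNA molecules only.

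**Figure D1:**
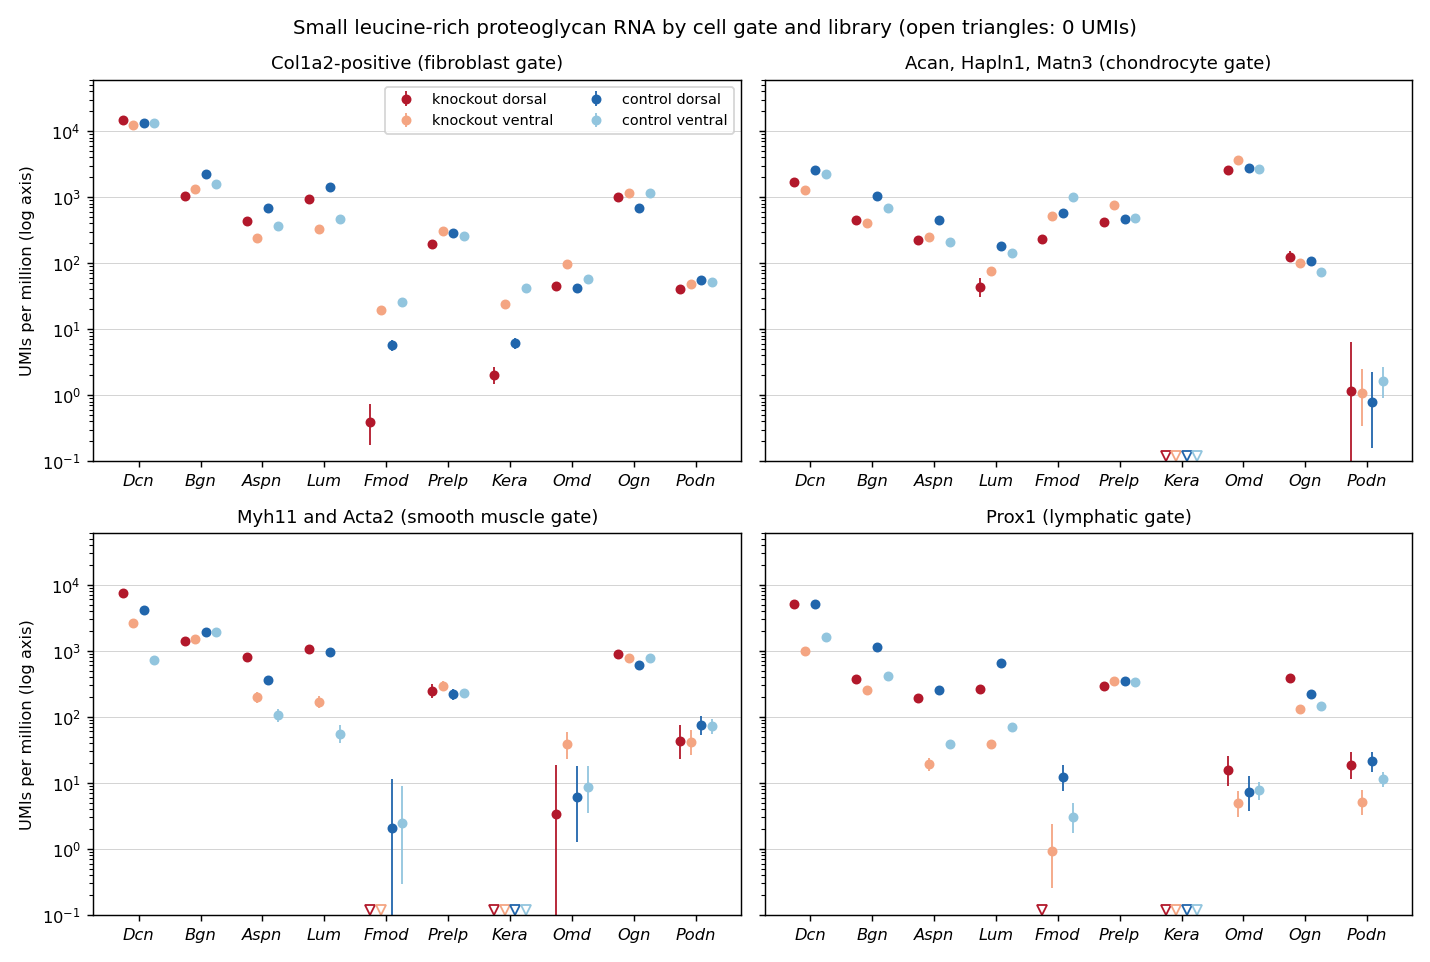
Levels of the 10 genes in CPM (log axis) in the 4 cell gates, with knockout dorsal, knockout ventral, control dorsal and control ventral libraries from left to right, bars showing exact Poisson 95% intervals and open triangles marking 0 UMIs. Dcn leads in the fibroblast gate, Omd leads in the chondrocyte gate, and Kera has UMIs in the fibroblast gate and 0 in the other 3 gates.

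Lum and Aspn were higher in dorsal than in ventral fibroblast-gate cells in both genotypes. Lum, encoding lumican, a keratan sulfate proteoglycan known from the cornea and dermis, had 946 CPM in knockout dorsal against 326 CPM in knockout ventral trachea. In controls it had 1430.5 CPM dorsally against 470.0 CPM ventrally. The ratio was 2.91 (2.83 to 2.98) in the knockout pair and 3.04 (2.98 to 3.11) in the control pair, so the ratios were alike in size while the level was lower in the knockout libraries. Aspn, encoding asporin, a member without a glycosaminoglycan chain that is known to hold back TGF-beta in cartilage, had 439 CPM in knockout dorsal against 237 CPM in knockout ventral trachea, and 694 CPM in control dorsal against 362 CPM in control ventral trachea. Its ratios were 1.85 (1.79 to 1.91) and 1.92 (1.87 to 1.97) for the knockout and control pairs. A gene was called higher or lower at 1.5-fold with an interval that did not hold 1, and 2 of the 10 members were called higher dorsally in each genotype. Among all genes measured that share was 3.72% in the knockout pair (16516 genes) and 4.1% in the control pair (17052 genes). At 2-fold Lum alone was called higher dorsally in each genotype, beside 1.74% of genes in the knockout and 2% in the control pair.

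Kera and Fmod were lower dorsally in both genotypes, by far more than any other member. Kera, encoding keratocan, known as a keratan sulfate proteoglycan of the corneal stroma and also present in tendon, had 47 UMIs in knockout dorsal against 593 UMIs in knockout ventral trachea, which are 2.03 against 24.1 CPM. In controls it had 126 UMIs dorsally against 1172 UMIs ventrally, or 6.10 against 41.5 CPM. The ratio was 0.0850 (0.0612 to 0.113) in the knockout pair and 0.148 (0.122 to 0.177) in the control pair. Fmod, encoding fibromodulin, a regulator of fibril width in tendon and cartilage, had 9 UMIs in knockout dorsal against 485 UMIs in knockout ventral trachea, and 117 UMIs in control dorsal against 725 UMIs in control ventral trachea. Its ratio was 0.0208 (0.00896 to 0.0377) in the knockout pair and 0.222 (0.180 to 0.269) in the control pair. Few cells carried these RNAs, and the 10 richest cells held 49.1% of the Kera UMIs of knockout ventral trachea and 36.4% of those of control ventral trachea. The size for Fmod depended on how cells were weighted and gated: thinning each cell to 5000 UMIs before gating gave 0.179 in the knockout pair, and a mean over cells gave 0.499 in the control pair. For Kera the knockout ratio was 0.138 after thinning and 0.149 as a mean over cells.

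**Figure D2:**
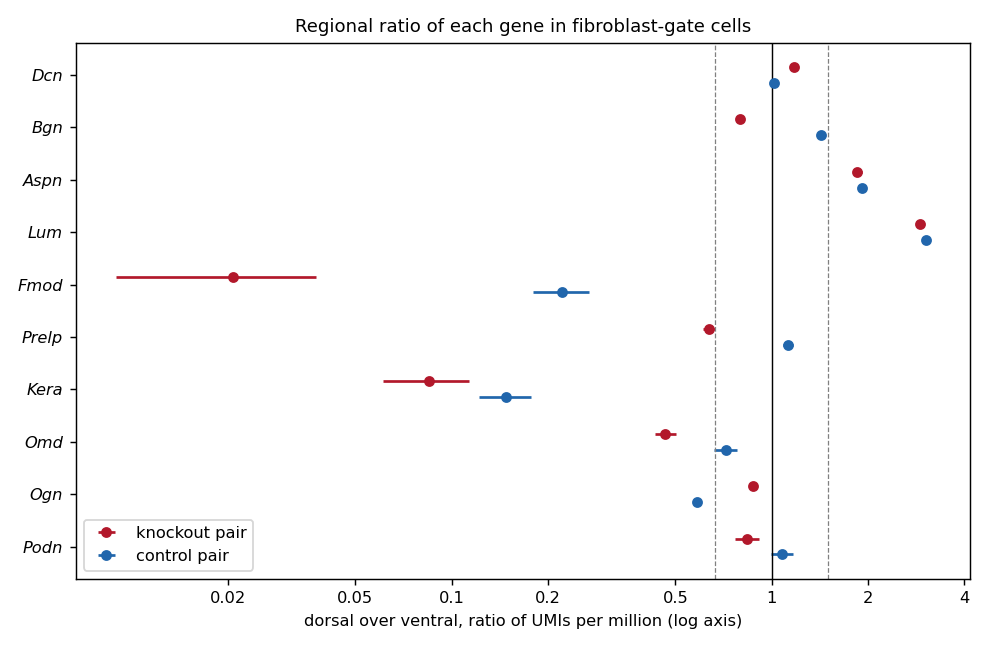
Ratio of the dorsal to the ventral level in fibroblast-gate cells (log axis) for each gene, with the knockout pair above the control pair, bars showing 95% counting intervals and dashed lines marking 1.5-fold in either direction. Lum and Aspn lie right of the dashed lines and Kera and Fmod far left of them in both genotypes, while Bgn and Prelp lie on opposite sides of 1 in the 2 genotypes.

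The other members had smaller regional ratios, and these were not alike in the 2 genotypes. Omd, encoding osteomodulin, a keratan sulfate proteoglycan known from bone and cartilage, had 44.7 CPM in knockout dorsal against 96.1 CPM in knockout ventral trachea (ratio 0.466, 0.432 to 0.501), and 42.0 CPM in control dorsal against 58.5 CPM in control ventral trachea (ratio 0.718, 0.661 to 0.780). It was lower dorsally in both genotypes and past 1.5-fold in the knockout pair. Prelp, whose protein is known to bind heparan sulfate and to link basement membrane to collagen, had 195 CPM in knockout dorsal against 307 CPM in knockout ventral trachea, and 285 CPM in control dorsal against 253 CPM in control ventral trachea. Its ratios of 0.635 (0.612 to 0.659) and 1.12 (1.09 to 1.16) for the knockout and control pairs lay on opposite sides of 1, and the knockout value was 0.726, inside the 1.5-fold limit, under median-of-ratios scaling. The knockout dorsal library was the lowest of the 4 for Prelp.

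Ogn, encoding osteoglycin or mimecan, was lowest in control dorsal trachea. It had 1007 CPM in knockout dorsal against 1149 CPM in knockout ventral trachea (ratio 0.877, 0.861 to 0.892), and 678 CPM in control dorsal against 1161 CPM in control ventral trachea (ratio 0.584, 0.572 to 0.595). Bgn, encoding biglycan, the closest relative of decorin and also known as a ligand of Toll-like receptors, had 1049 CPM in knockout dorsal against 1316 CPM in knockout ventral trachea, and 2276 CPM in control dorsal against 1599 CPM in control ventral trachea. Its ratios were 0.797 (0.784 to 0.810) in the knockout pair and 1.42 (1.40 to 1.44) in the control pair, opposite in direction and both inside 1.5-fold. Dcn had ratios of 1.17 (1.17 to 1.18) and 1.02 (1.01 to 1.02) for the knockout and control pairs. Podn, encoding podocan, known to restrain smooth muscle growth, had 40.3 CPM in knockout dorsal against 48.2 CPM in knockout ventral trachea and 55.7 CPM in control dorsal against 51.7 CPM in control ventral trachea, and its control interval (0.996 to 1.16) held 1.

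In all, 4 members were called lower dorsally in the knockout pair (Fmod, Prelp, Kera and Omd), where 27.9% of all genes were, and 3 in the control pair (Fmod, Kera and Ogn), where 15.5% were. At 2-fold Fmod, Kera and Omd were called lower in the knockout pair and Fmod and Kera in the control pair, where 15.4% and 8.63% of all genes were. These counts are a description beside a background that is itself high. The median log2 ratio of the members was -0.29 in the knockout pair and 0.07 in the control pair, against -0.29 and -0.10 over all genes measured. Median-of-ratios scaling put the centre of the knockout pair at -0.19 and of the control pair at -0.03 on the log2 scale. It left the calls on Lum, Aspn, Kera and Fmod in place, and it put the knockout ratio of Ogn at 1.00.

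The share of fibroblast-gate cells with a UMI followed the same regional order for these genes. With each cell thinned to 5000 UMIs, Lum was seen in 79.5% of cells in knockout dorsal and 44.7% in knockout ventral trachea, and in 79.3% in control dorsal and 48.1% in control ventral trachea. Before thinning the shares were 84.7% in knockout dorsal and 51.3% in knockout ventral trachea, and 80.8% in control dorsal and 52.4% in control ventral trachea. Aspn was seen in 51.6% and 33.2% of thinned cells in knockout dorsal and knockout ventral trachea, and in 55.3% and 35.8% in control dorsal and control ventral trachea. The dorsal share of Lum was close to equal in both genotypes although its level was lower in knockout dorsal trachea. Kera was seen in 0.477% of thinned cells in knockout dorsal and 2.75% in knockout ventral trachea, and in 0.706% in control dorsal and 4.20% in control ventral trachea. Fmod was seen in 0.212% and 4.05% of cells in knockout dorsal and knockout ventral trachea, and in 0.757% and 4.61% in control dorsal and control ventral trachea. Free RNA, which leaks from broken cells into every droplet, was small beside these values for Kera: among thinned Epcam-positive cells, whose median depth was 21676 to 26217 UMIs before thinning, at most 0.0416% had a Kera UMI in any library. For Fmod the Epcam-positive share was 0.0317% in knockout dorsal and 0.374% in knockout ventral trachea, and 0.0354% in control dorsal and 0.401% in control ventral trachea. The ventral epithelial shares of Fmod were thus above the 0.212% of fibroblast-gate cells in knockout dorsal trachea.

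**Figure D3:**
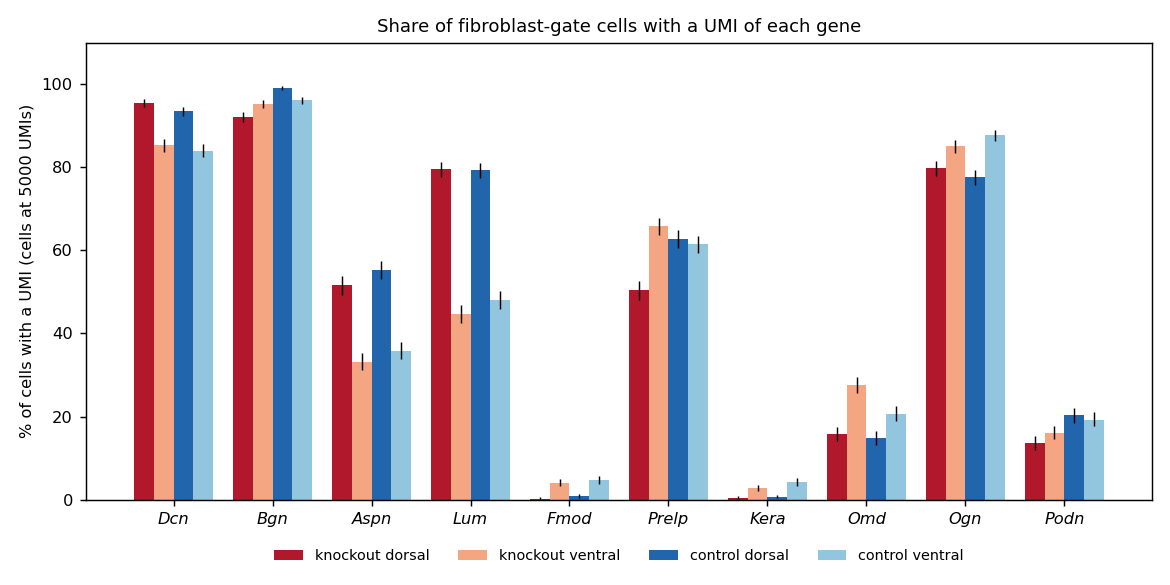
Share of fibroblast-gate cells with at least 1 UMI of each gene after thinning every cell to 5000 UMIs, with bars for knockout dorsal, knockout ventral, control dorsal and control ventral libraries from left to right and lines for exact binomial 95% intervals. Lum reaches 79.5% and 79.3% of cells in the knockout dorsal and control dorsal libraries against 44.7% and 48.1% in the ventral libraries, and Kera and Fmod stay under 5% everywhere.

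The regional ratios of Lum were also above 1 inside subgroups of the fibroblast gate that were set by genes outside the family and that overlap. In Pi16- or Dpp4-positive cells, as adventitial fibroblasts are, the Lum ratio was 3.13 in the knockout pair and 3.05 in the control pair. These cells were most of the gate, so their ratios largely repeat those of the whole gate. They numbered 1683 of 2042 in knockout dorsal and 1647 of 2264 in knockout ventral trachea. In control dorsal and control ventral trachea they numbered 1855 of 2304 and 1640 of 2395. In Col23a1-positive cells it was 4.07 in the knockout and 3.27 in the control pair, in Lrat- or Bmp5-positive cells 2.03 in the knockout and 2.10 in the control pair, and in Prg4-positive cells 1.93 in the knockout and 2.04 in the control pair. Cells with none of these genes numbered 103 and 72 in knockout dorsal and knockout ventral trachea and gave a Lum ratio of 1.17 (1.02 to 1.35), against 2.12 (1.91 to 2.35) in the 129 and 115 such cells of control dorsal and control ventral trachea. Aspn was higher dorsally in each of the 5 subgroups in both genotypes, with ratios of 1.16 to 3.004 in the knockout pair and 1.54 to 1.88 in the control pair.

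Dcn did not keep 1 direction across the subgroups in either genotype, and Ogn did not in the knockout pair. In the control pair the Ogn ratio was under 1 in every subgroup, from 0.284 to 0.856. In Prg4-positive cells, which carry the RNA of lubricin, Dcn was at 18539 CPM in knockout dorsal against 22829 CPM in knockout ventral trachea and at 18071 CPM in control dorsal against 26231 CPM in control ventral trachea. That is a ratio of 0.812 in the knockout pair and 0.689 in the control pair, while Pi16- or Dpp4-positive cells gave 1.25 and 1.05. Ogn in Prg4-positive cells was at 663 CPM in knockout dorsal against 1693 CPM in knockout ventral trachea and at 496 CPM in control dorsal against 1744 CPM in control ventral trachea, the lowest Ogn ratios of any subgroup (0.391 and 0.284). In Col23a1-positive cells the Ogn ratio was 1.57 (1.53 to 1.61) in the knockout pair and 0.856 (0.834 to 0.879) in the control pair. Bgn had ratios under 1 in the knockout pair (0.730 to 0.965) and above 1 in the control pair (1.31 to 1.63) for Pi16 or Dpp4, Lrat or Bmp5, Col23a1 and Prg4. The composition of the gate differed between regions: Lrat- or Bmp5-positive cells numbered 785 in knockout dorsal and 145 in knockout ventral trachea, and 741 in control dorsal and 146 in control ventral trachea. Kera and Fmod were lower dorsally in all 4 of the named subgroups in both genotypes.

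Kera RNA sat in a small set of cells with high Dcn. In the fibroblast gate, 10 of 2042 cells in knockout dorsal, 70 of 2264 in knockout ventral, 23 of 2304 in control dorsal and 116 of 2395 in control ventral trachea had a Kera UMI, and a Prg4 UMI was also present in 10 of these cells in knockout dorsal, 69 in knockout ventral, 15 in control dorsal and 105 in control ventral trachea. Within these cells the Kera level was 612 CPM in knockout dorsal and 732 CPM in knockout ventral trachea, and 625 CPM in control dorsal and 807 CPM in control ventral trachea. The level per Kera-positive cell thus varied far less than the share of such cells. Cells with a Kera UMI are those in which it was captured, so this level describes them only. The Kera-positive cells had 24922 CPM of Dcn against 14569.5 CPM in the other cells of knockout dorsal trachea, 33046 against 11750 CPM in knockout ventral, 34041 against 13141 CPM in control dorsal and 36157 against 11849 CPM in control ventral trachea. Aspn was also higher in them in every library, at 2032 against 433 CPM in knockout dorsal, 940 against 213 CPM in knockout ventral, 1963 against 681 CPM in control dorsal and 1123 against 321 CPM in control ventral trachea.

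Several, but not all, genes of perichondrium and tendon stood higher in the same cells in every library. Cilp was at 78.2 CPM in Kera-positive against 83.5 CPM in other cells of knockout dorsal trachea, and Mkx had 0 UMIs in the 10 Kera-positive cells there, against 2.91 CPM in the others. Thbs4, a thrombospondin of tendon and muscle matrix, had 2124 CPM in Kera-positive against 41.1 CPM in other fibroblast-gate cells of knockout dorsal trachea, and 1821 against 92.6 CPM in knockout ventral trachea. In controls Thbs4 had 2023 against 84.2 CPM dorsally and 1377 against 141 CPM ventrally. Scx, a transcription factor of tendon progenitors, had 65.1 against 1.47 CPM in knockout dorsal, 46.9 against 1.64 CPM in knockout ventral, 79.3 against 4.80 CPM in control dorsal and 45.4 against 3.80 CPM in control ventral trachea, on 5, 38, 16 and 66 UMIs in the Kera-positive cells. Lum, the genomic neighbour of Kera, was higher in Kera-positive cells of the ventral but not of the dorsal libraries. They had 584 against 317 CPM of Lum in knockout ventral and 1041 against 439 CPM in control ventral trachea. In the few dorsal ones Lum had 612 against 947 CPM in knockout dorsal and 1403 against 1431 CPM in control dorsal trachea. Fmod had 263 against 11.4 CPM in knockout ventral and 157 against 18.5 CPM in control ventral trachea, and Kera and Fmod were found together in 33 and 27 cells there, against 1 cell in knockout dorsal and 2 cells in control dorsal trachea.

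**Figure D4:**
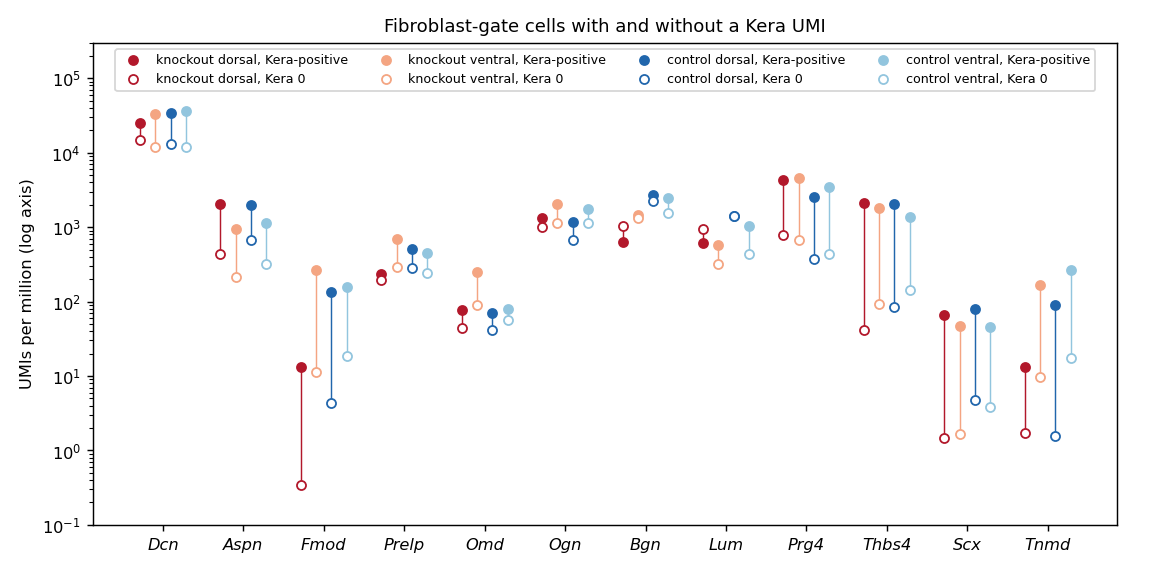
Levels (CPM, log axis) of 8 family members and of Prg4, Thbs4, Scx and Tnmd in fibroblast-gate cells with a Kera UMI (filled) and without one (open), with knockout dorsal, knockout ventral, control dorsal and control ventral libraries from left to right. Dcn, Aspn, Prg4, Thbs4, Scx and Tnmd stand higher in the filled points of every library (Tnmd on 1 UMI in knockout dorsal trachea), whereas Bgn and Lum do so in some libraries only.

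Omd led the family in the chondrocyte gate. Chondrocyte markers were all detected there, with summed levels of 8528 CPM in knockout dorsal, 10900 CPM in knockout ventral, 11154 CPM in control dorsal and 14268 CPM in control ventral trachea, in 32, 239, 276 and 497 cells. Omd had 2615 CPM in knockout dorsal against 3630.1 CPM in knockout ventral trachea (ratio 0.720, 0.689 to 0.753), and 2765 CPM in control dorsal against 2690.5 CPM in control ventral trachea (ratio 1.03, 1.00 to 1.05). It was seen in at least 95.0% of thinned chondrocyte-gate cells in every library and made up 33.8% to 51.8% of the UMIs of the family. Epithelial markers stood at 27259 CPM in the chondrocyte gate of knockout dorsal trachea, against 660.3, 3138 and 1013 CPM in that of the knockout ventral, control dorsal and control ventral libraries. With Epcam- or Ptprc-positive cells left out they were at 157, 136, 807 and 193 CPM in knockout dorsal, knockout ventral, control dorsal and control ventral trachea. Omd then stood at 3364 CPM in knockout dorsal against 3809 CPM in knockout ventral trachea, and at 2882 CPM in control dorsal against 2887 CPM in control ventral trachea.

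Fmod was lower in dorsal than in ventral chondrocyte-gate cells of both genotypes. It had 232 CPM in knockout dorsal against 523 CPM in knockout ventral trachea (ratio 0.446, 0.383 to 0.513) and 574 CPM in control dorsal against 988 CPM in control ventral trachea (ratio 0.581, 0.554 to 0.609). Prelp had 421 CPM in knockout dorsal against 752 CPM in knockout ventral trachea (ratio 0.560, 0.501 to 0.624), and 460 CPM in control dorsal against 479 CPM in control ventral trachea (ratio 0.960, 0.908 to 1.01). In the whole gate Prelp thus stood highest in knockout ventral trachea, and the other 3 libraries lay close together. The knockout dorsal levels come from 32 cells, with the 27259 CPM of epithelial markers given above. With Epcam- or Ptprc-positive cells left out, 7 of the 8 knockout ratios kept their direction and 0 moved by over 1.5 times. Bgn had 452 CPM in knockout dorsal against 406 CPM in knockout ventral trachea and 1058 CPM in control dorsal against 687 CPM in control ventral trachea. Aspn had 227 CPM in knockout dorsal against 247 CPM in knockout ventral trachea and 447 CPM in control dorsal against 207 CPM in control ventral trachea. Both were highest in control dorsal trachea, with control ratios of 1.54 (1.48 to 1.60) for Bgn and 2.16 (2.02 to 2.31) for Aspn.

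Lum was low in the chondrocyte gate, with 43.7 CPM in knockout dorsal against 74.7 CPM in knockout ventral trachea (ratio 0.592, 0.407 to 0.819) and 181 CPM in control dorsal against 143 CPM in control ventral trachea (ratio 1.27, 1.16 to 1.39). Dcn had 1674 CPM in knockout dorsal against 1273 CPM in knockout ventral trachea and 2581 CPM in control dorsal against 2228 CPM in control ventral trachea. Ogn had 125 CPM in knockout dorsal against 100.1 CPM in knockout ventral trachea, and 106 CPM in control dorsal against 72.9 CPM in control ventral trachea. Podn had 1 to 15 UMIs per library and was not measured at the limit of 20 UMIs over a pair. Kera had 0 UMIs in all 1044 chondrocyte-gate cells, and 0 of 440 thinned cells in control ventral trachea allows a share of cells with a Kera UMI of up to 0.682% (3 counts), which does not bound the share of cells that express it. Of the 8 members measured in the whole gate, 0 were called higher and 3 lower dorsally in the knockout pair (Lum, Fmod and Prelp), where 6.08% and 13.8% of 11431 genes were. In the control pair 2 were called higher (Bgn and Aspn) and 1 lower (Fmod), where 5.93% and 9.96% of 13698 genes were. The median log2 ratio of the members was -0.30 in the knockout and 0.28 in the control pair, against -0.12 and -0.02 over all genes.

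The cells with both Myh11 and Acta2 carried RNA of smooth muscle and of fibroblasts. The 7 smooth muscle markers summed to 1905 CPM in knockout dorsal and 3175 CPM in knockout ventral trachea. In controls they summed to 10335 CPM dorsally and 1737 CPM ventrally. Their sum in the fibroblast gate was 47.4 to 82.5 CPM. Fibroblast markers summed to 3659 to 4125 CPM in the cells with both Myh11 and Acta2. Of these cells, 19 of 24 in knockout dorsal, 33 of 37 in knockout ventral, 32 of 51 in control dorsal and 51 of 53 in control ventral trachea had a UMI of the fibroblast genes Pdgfra or Dpt. Des, encoding desmin, was seen in 2 of them in knockout dorsal, 4 in knockout ventral, 17 in control dorsal and 1 in control ventral trachea, so they are called Myh11- and Acta2-positive cells here. Bgn had 1401 CPM in knockout dorsal against 1525.5 CPM in knockout ventral trachea, and 1911 CPM in control dorsal against 1941 CPM in control ventral trachea, and both ratio intervals held 1. Dcn had 7603 CPM in knockout dorsal against 2626 CPM in knockout ventral trachea, and 4154 CPM in control dorsal against 718 CPM in control ventral trachea. Lum had 1047 CPM in knockout dorsal against 168 CPM in knockout ventral trachea and 943 CPM in control dorsal against 55.5 CPM in control ventral trachea.

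Dcn, Aspn and Lum were thus the 3 members called higher dorsally in each genotype in this gate, beside 6.49% of 6072 genes in the knockout pair and 8.72% of 7788 genes in the control pair. Omd was called lower in the knockout pair on 1 against 20 UMIs, where 15.1% of genes were, and 0 members were called lower in the control pair, where 10.8% were. Without the cells that had Pdgfra or Dpt, 5 cells remained in knockout dorsal, 4 in knockout ventral, 19 in control dorsal and 2 in control ventral trachea. In the 19 control dorsal cells Ogn was at 850 CPM, Bgn at 669 CPM, Dcn at 483 CPM, Aspn at 372 CPM, Prelp at 192 CPM and Lum at 46.6 CPM, beside a summed level of 25965 CPM for the 7 smooth muscle markers. Dcn, Bgn and Lum were thus lower in these cells than in the whole gate of control dorsal trachea, where Bgn was at 1911 CPM. Ogn was higher, against 606 CPM in the whole gate.

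Prelp was the member that lymphatic-gate cells carried at an even level. It had 297 CPM in knockout dorsal against 354 CPM in knockout ventral trachea (ratio 0.839, 0.738 to 0.949), and 350 CPM in control dorsal against 340.1 CPM in control ventral trachea (ratio 1.03, 0.934 to 1.13). The gate held 58, 345, 146 and 466 cells in knockout dorsal, knockout ventral, control dorsal and control ventral trachea, with all 6 lymphatic markers detected and a summed level of 24291 to 31427 CPM. Col1a2 UMIs were found in 23 of these cells in knockout dorsal, 48 in knockout ventral, 65 in control dorsal and 81 in control ventral trachea. Fibroblast markers summed to 1705 CPM in knockout dorsal, 730.3 CPM in knockout ventral, 4476 CPM in control dorsal and 1128 CPM in control ventral trachea. In the cells with Col1a2 at 0, Prelp stood at 353 CPM in knockout dorsal against 373 CPM in knockout ventral trachea and at 406 CPM in control dorsal against 359 CPM in control ventral trachea. It was seen in 69.6% to 75.9% of thinned lymphatic-gate cells, against 0.0635% to 2.23% of thinned Epcam-positive cells.

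Most other members measured in the lymphatic gate were higher dorsally, as those fibroblast markers were, and their part in these values was not tested. Omd in controls was not, with 7.30 CPM dorsally against 7.67 CPM ventrally. Dcn had 5124 CPM in knockout dorsal against 991 CPM in knockout ventral trachea and 5168 CPM in control dorsal against 1623 CPM in control ventral trachea in the whole gate. With Col1a2 at 0 it had 244 CPM in knockout dorsal against 40.8 CPM in knockout ventral trachea, and 62.4 CPM in control dorsal against 57.7 CPM in control ventral trachea. Bgn had 377 CPM in knockout dorsal against 254 CPM in knockout ventral trachea, and 1145 CPM in control dorsal against 423 CPM in control ventral trachea, in the whole gate. With Col1a2 at 0 it had 36.2 CPM in knockout dorsal against 78.0 CPM in knockout ventral trachea, and 96.4 CPM in control dorsal against 155 CPM in control ventral trachea, a control ratio of 0.624. The median log2 ratio of the members was 1.77 in the knockout and 1.44 in the control pair of the whole gate, against -0.04 and 0.05 over all genes. In the whole gate 6 members were called higher and 0 lower dorsally in each genotype, where 5.77% and 9.61% of 11348 genes were in the knockout pair and 10.7% and 6.78% of 12099 genes in the control pair. They were Dcn, Aspn, Lum, Omd, Ogn and Podn in the knockout pair. In the control pair they were Dcn, Bgn, Aspn, Lum, Fmod and Podn. The Fmod call rested on 20 against 16 UMIs, and the 20 dorsal ones all came from 1 of 146 cells. The ratios of Aspn were 10.3 and 6.64, and those of Lum 6.84 and 9.57, in the knockout and control pairs. With Col1a2 at 0 only 3 members were measured in the knockout and 4 in the control pair. There was then 1 call in each direction in each genotype, and the share of all genes called was not counted in that setting. Kera had 0 UMIs in the lymphatic gate and in the Myh11- and Acta2-positive cells of every library.

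The check of free RNA found Dcn in epithelial cells. Epcam-positive cells without Col1a2 had 106 CPM of Dcn in knockout dorsal and 69.9 CPM in knockout ventral trachea, and 95.2 CPM in control dorsal and 85.3 CPM in control ventral trachea. Ptprc-positive cells, which are leukocytes, had 7.33 to 20.4 CPM. In Epcam-positive cells with at least 3 UMIs of Krt5, a keratin of basal cells, Dcn was higher and close to even across libraries, with 261 CPM in knockout dorsal and 242 CPM in knockout ventral trachea, and 275 CPM in control dorsal and 282 CPM in control ventral trachea. Epcam-positive cells with fewer Krt5 UMIs had 30.3 CPM in knockout dorsal and 21.4 CPM in knockout ventral trachea, and 25.1 CPM in control dorsal and 18.8 CPM in control ventral trachea.

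A Dcn UMI was present in 81.4% of the 1487 Krt5-rich cells of knockout dorsal and 84.6% of the 839 of knockout ventral trachea, and in 73.5% of the 3265 of control dorsal and 86.9% of the 1362 of control ventral trachea. In the Krt5-poor cells the shares were 25.6% in knockout dorsal, 18.1% in knockout ventral, 16.8% in control dorsal and 19.9% in control ventral trachea, although their median depths (23163 to 38719 UMIs) were above those of the Krt5-rich cells (16137 to 23408 UMIs). Bgn, the closest relative of Dcn, did not differ in this way, with 0.366 to 2.20 CPM in Krt5-rich and 0.347 to 2.47 CPM in Krt5-poor cells, and Col1a1, a main fibroblast collagen, had 0.122 to 1.02 CPM in Krt5-rich cells. The split by Krt5 was chosen after these values were seen. Dcn in Krt5-rich cells was still far below the fibroblast gate, where its lowest level was 12452 CPM.

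**Figure D5:**
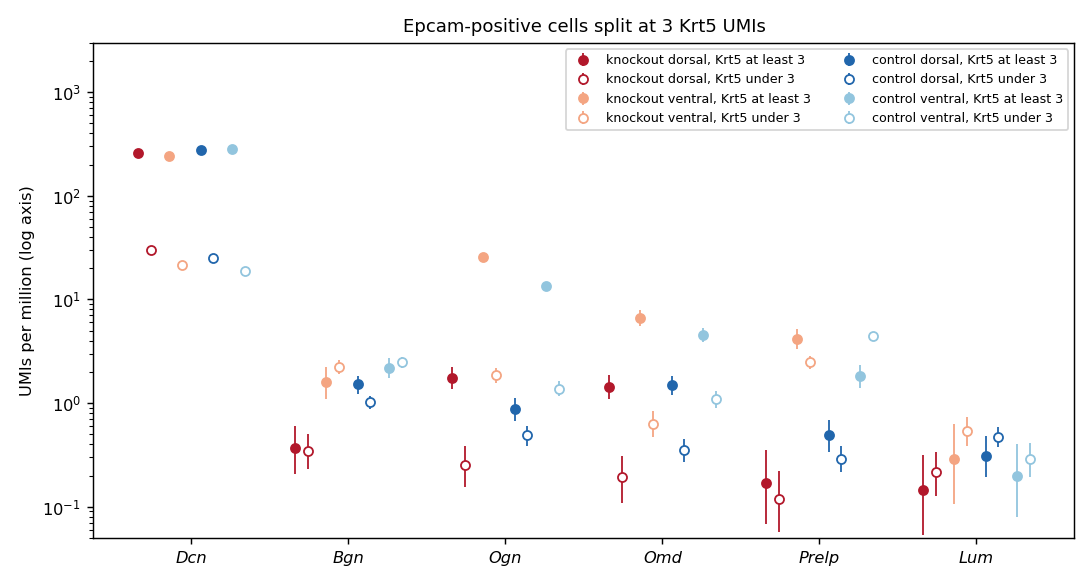
Levels (CPM, log axis) of 6 members in Epcam-positive cells with at least 3 Krt5 UMIs (filled) and with fewer (open), with knockout dorsal, knockout ventral, control dorsal and control ventral libraries from left to right and bars for exact Poisson 95% intervals. Dcn stands at 242 to 282 in the filled and at 18.8 to 30.3 in the open points, while Bgn lies at 2.47 or less in both.

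Between genotypes, the fibroblast gate had lower levels of several members in knockout than in control libraries, with 5 called lower in the dorsal and 2 in the ventral pair. The question was whether these stromal genes differ when Ctnnb1 is removed from the epithelium, and the knockout and control libraries are the same 4 used above. Bgn was at 1049 CPM in knockout dorsal against 2276 CPM in control dorsal trachea (ratio 0.461, 0.454 to 0.468), and at 1316 CPM in knockout ventral against 1599 CPM in control ventral trachea (ratio 0.823, 0.811 to 0.835). The knockout over control ratio of Aspn was 0.632 (0.616 to 0.648) in the dorsal and 0.654 (0.633 to 0.675) in the ventral pair. Lum gave 0.661 (0.650 to 0.673) and 0.693 (0.674 to 0.712), and Kera gave 0.335 (0.233 to 0.469) and 0.582 (0.526 to 0.643), for the same pairs. Fmod gave 0.0721 (0.0306 to 0.135) in the dorsal pair, on 9 against 117 UMIs, and 0.770 (0.684 to 0.864) in the ventral pair. Thinning to 5000 UMIs gave 0.497 for Fmod and 0.769 for Kera in the dorsal pair. The stricter gate gave 0.701 for Lum in the dorsal pair, and 0.761 for Aspn and 0.686 for Kera in the ventral pair, all inside 1.5-fold, and it gave 0.530 for Fmod in the ventral pair, past it.

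Omd and Ogn went the other way. Omd was at 96.1 CPM in knockout ventral against 58.5 CPM in control ventral trachea (ratio 1.64, 1.54 to 1.75), and Ogn was at 1007 CPM in knockout dorsal against 678 CPM in control dorsal trachea (ratio 1.49, 1.45 to 1.52), just inside the 1.5-fold limit. Dcn had ratios of 1.09 (1.09 to 1.10) dorsally and 0.951 (0.946 to 0.955) ventrally. In the dorsal pair 0 members were called higher and 5 lower (Bgn, Aspn, Lum, Fmod and Kera), where 6.24% and 20.8% of 15842 genes were. In the ventral pair 1 was called higher (Omd) and 2 lower (Aspn and Kera), where 3.52% and 6.18% of 17519 genes were. The median log2 ratio of the members was -0.57 dorsally and -0.19 ventrally, against -0.16 and 0.02 over all genes. Median-of-ratios scaling, whose centre was at -0.14 dorsally, called 1 member higher (Ogn) and 3 lower in the dorsal pair. The share of all genes called was not counted under that scaling. The summed fibroblast markers were also lower in knockout libraries, and with 1 library per group genotype and library cannot be told apart.

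Other genes of the same matrix and pathway were counted from 6 lists. The counts stand beside 3.72% of all genes higher and 27.9% lower dorsally in the knockout pair, and 4.1% higher and 15.5% lower in the control pair, with median log2 ratios over all genes of -0.29 and -0.10. Of 8 further leucine-rich repeat proteoglycan genes, 6 were measured in the fibroblast gate, and 1 was higher and 4 lower dorsally in the knockout pair, 2 higher and 2 lower in the control pair. Ecm2, which adjoins Aspn, had a log2 ratio of 0.89 in the knockout and 0.97 in the control pair, on the same side as Aspn, while Epyc, the neighbour of Kera, had -1.75 and -2.70, on the same side as Kera. Optc, which adjoins Prelp, had -0.86 and -0.68, whereas Prelp had -0.66 and 0.17, on the other side in the control pair. Chad, encoding chondroadherin of cartilage, had 5.36 CPM in knockout dorsal against 24.3 CPM in knockout ventral trachea and 51.0 CPM in control dorsal against 36.2 CPM in control ventral trachea.

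Of 21 genes that make the chondroitin and dermatan sulfate chains, 20 were measured in the knockout pair, with 0 higher and 4 lower dorsally (median log2 ratio -0.26, near that of all genes), and 21 in the control pair, with 1 higher and 0 lower (median 0.13). Xylt1, which attaches the first sugar of the chain, had log2 ratios of -1.36 in the knockout and -0.17 in the control pair. Of 6 keratan sulfate genes, 4 were measured, with 1 higher and 0 lower dorsally in each genotype, at no more than 2.47 CPM for the 2 genes called, Chst2 in the knockout and Chst1 in the control pair.

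Of 20 fibrillar collagens and partners, 19 were measured in the knockout pair, with 2 higher and 7 lower dorsally, and 20 in the control pair, with 4 higher and 5 lower. Lox, the collagen cross-linking oxidase, had log2 ratios of -1.51 and -1.36, and Col11a1, a thin-fibril collagen of cartilage, had -2.61 and -1.68, in the knockout and control pairs. Between genotypes, 18 of these 20 genes were lower in knockout dorsal than in control dorsal trachea, and 10 of 20 in knockout ventral than in control ventral trachea, with 0 higher in either, where 20.8% of all genes were lower in the dorsal and 6.18% in the ventral pair. Col1a1 was at 459 CPM in knockout dorsal against 1550.4 CPM in control dorsal trachea and at 584 CPM in knockout ventral against 1539 CPM in control ventral trachea. Of 12 genes of TGF-beta and its receptors and binding proteins, 0 were higher and 5 lower dorsally in the knockout pair, where 27.9% of all genes were lower, and 0 higher and 1 lower in the control pair, where 15.5% were. Of 15 proteases and receptors of these proteoglycans, 14 were measured in the knockout pair with 0 higher and 5 lower, and 15 in the control pair with 1 higher and 1 lower, beside the same shares of all genes.

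The genes whose levels ran most like each member were found over 24 sums, the 6 cell classes (the 4 gates and the Epcam- and Ptprc-positive cells) of the 4 libraries, by Pearson r of log2(CPM + 10). These points share libraries and cell types, so r is a description. Bgn ran most like Col6a1 and Calu (r = 0.990 for both), Ogn like Il11ra1 (0.990) and Clip3 (0.985), and Podn like Fgf7 (0.987) and Pamr1 (0.984). Fmod ran most like Col11a1 (0.987) and D630045J12Rik (0.983), Prelp like Ecm2 and Itm2a (0.976 for both), Omd like Cytl1 (0.977) and Tspan32os (0.972), and Aspn like Prrx1 (0.977) and Ptgis (0.967). Dcn ran most like Gsn (0.969) and Nenf (0.967), Lum like Islr (0.952) and Medag (0.945), and Kera like Gm266 and Slc36a2 (0.947 for both). The values for Kera rest on its fibroblast-gate sums (2.03 to 41.5 CPM), since no other sum passed 0.349 CPM.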

How the data were processed

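Single-cell RNA was measured in 4 libraries of mouse trachea, 1 per group. The authors aligned reads and counted UMIs with Cell Ranger 10.0.0 against GRCm39, per the submitters' processing notes, and deposited whole-number counts per gene and barcode. Here, barcodes with under 500 genes or over 15% mitochondrial UMIs were left out, and doublets were removed with Scrublet (scanpy 1.11.5). Its automatic threshold marked under 0.5% of barcodes in the knockout ventral library, where a fixed rate of 0.4% per 1000 barcodes was used. Between 6120 and 12971 cells per library were kept. UMIs were summed per gate and library. Ratios have exact binomial and levels exact Poisson intervals (95%, scipy 1.17.1), for counting error only. A gene counted as measured with 20 UMIs over a pair, and 0.5 UMI was added in ratios. All 10 genes were counted in every gate. The 2 most similar genes of each are named, with some of the list genes furthest from 1 in both genotypes. Members, lists and gates were chosen with earlier results of these data known. Scripts were tested on simulated data. Alternatives were other scaling, gates, thinning, doublet handling, weighting of cells, subgroups and a 2-fold limit.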

Additional observations from a re-analysis of the deposited data

Results flagged for a closer look

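Bgn and Prelp had regional ratios on opposite sides of 1 in the 2 genotypes of the fibroblast gate. The dorsal over ventral ratio of Bgn was 0.797 in the knockout pair and 1.42 in the control pair, and that of Prelp was 0.635 in the knockout pair and 1.12 in the control pair. In the chondrocyte gate Lum had 0.592 in the knockout pair and 1.27 in the control pair, and Omd had 0.72 in the knockout pair and 1.03 in the control pair. Without Epcam- or Ptprc-positive cells the Omd ratio was 0.883 in the knockout and 0.998 in the control pair, so the gap was smaller. With 1 library per group these differences between genotypes were not tested.

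Dcn was found outside the 4 gates, in Epcam-positive cells with at least 3 Krt5 UMIs. It stood there at 261 CPM in knockout dorsal and 242 CPM in knockout ventral trachea, and at 275 CPM in control dorsal and 282 CPM in control ventral trachea, against 30.3 CPM or less in Epcam-positive cells with fewer Krt5 UMIs.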

How the results depend on the processing

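No paired analysis was possible because each group is 1 library, and for the same reason no replicate could be left out. Of 640 member ratios under the alternatives, 588 kept their direction, 2 calls reversed and 75 moved by over 1.5 times. The reversed ones were Fmod in control fibroblast-gate cells with none of the subgroup genes (2.42) and Bgn in control lymphatic-gate cells with Col1a2 at 0 (0.624). Counts of members called that changed by over 1.5 times are given here, and the cause was not tested. Among the alternatives, the share of all genes called was counted only at 2-fold in the regional fibroblast-gate pairs. The other counts stand without it and are a description of the members alone. Stricter gates also gave 4 lower in the control fibroblast pair (Omd added, 0.634) and 4 lower in the dorsal pair between genotypes (Lum lost, 0.701). At 2-fold, fibroblast-gate cells had 1 member higher dorsally in each genotype. Between genotypes 3 were then lower in the dorsal pair, and 0 were higher and 0 lower in the ventral pair. In the knockout fibroblast gate 1 was higher in the Lrat or Bmp5, the Prg4 and the unnamed subgroup, and 2 were lower in the unnamed one, where the control had 6 higher and 1 lower. In control chondrocyte-gate cells 1 was higher with doublets kept, with stricter gates and after thinning, and 4 with the fixed doublet rate. In Myh11- and Acta2-positive cells the knockout had 0 higher without Pdgfra or Dpt, where only 2 members were measured, and 0 lower after thinning, where 6 were. The control had 2 lower with stricter gates, where 7 were measured. In the lymphatic gate stricter gates gave 3 higher in each genotype and 1 lower in the knockout, thinning gave 1 lower in the knockout, and Col1a2 at 0 gave 1 higher and 1 lower in each genotype. Fewer members were measured there: 5 in the knockout and 6 in the control pair with stricter gates, 6 in the knockout pair after thinning. With Col1a2 at 0 they were 3 in the knockout and 4 in the control pair. Between genotypes in the dorsal pair, 1 was higher with size factors, stricter gates, thinning or a mean over cells, and 3 were lower with size factors. In the ventral pair 1 was lower with stricter gates or thinning. The fixed doublet rate in all libraries, the gates without cells of other types and the Krt5 split were chosen after seeing the data. Low counts limit Kera and Fmod in dorsal trachea and all members in Myh11- and Acta2-positive cells.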

Other observations

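Ogn and Omd also had UMIs in Krt5-rich Epcam-positive cells. Ogn stood at 1.76 CPM in knockout dorsal and 25.7 CPM in knockout ventral trachea, and at 0.876 CPM in control dorsal and 13.3 CPM in control ventral trachea. In Krt5-poor cells it stood at 0.252 and 1.86 CPM in knockout dorsal and knockout ventral trachea, and at 0.487 and 1.37 CPM in control dorsal and control ventral trachea. Omd stood at 1.44 and 6.63 CPM in Krt5-rich cells of knockout dorsal and knockout ventral trachea, and at 1.48 and 4.54 CPM in those of control dorsal and control ventral trachea.

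Across single fibroblast-gate cells thinned to 5000 UMIs, Dcn and Lum had a Pearson r of 0.454 in knockout dorsal (1886 cells) and 0.5001 in knockout ventral trachea (2076 cells), and of 0.455 in control dorsal (1982 cells) and 0.516 in control ventral trachea (2168 cells). Aspn and Lum had 0.0945 in knockout dorsal and 0.370 in knockout ventral trachea, and 0.171 in control dorsal and 0.437 in control ventral trachea. Cells of 1 library share its handling, so these values are a description.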
